A study of Mus musculus with 8 samples.

Results

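The genes described here are *Acly*, *Acaca*, *Fasn*, *Me1*, *Thrsp*, *Scd1*, *Scd2*, *Elovl6*, *Elovl5* and *Cpt1a*, which make and modify fatty acids or gate their oxidation and include genes known to respond to thyroid hormone. They were chosen by name, and they are 10 of the 52325 genes with deposited counts. All 10 passed the filter on low counts, which left 18174 tested genes. The RNA came from endometrium cut by laser from frozen uterine sections of 4 *Thra1*PV/+ and 4 WT female mice, all at metestrus and so at 1 phase of the estrous cycle. *Thra1*PV/+ mice carry in 1 *Thra* allele the PV mutation, a frameshift that makes a dominant negative thyroid hormone receptor TRα1. The mutation is in the germline, so every tissue of these mice carries it. A count per gene does not tell the PV allele from the normal one, so the genotype labels could not be checked on *Thra* itself. The ages of these 8 mice are not given in the sources used here, and the study names the NIH 31 diet for the mutant mice. The comparison asks whether these lipid genes differ between mutant and WT endometrium.

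Fatty acid synthesis starts in the cytosol, where citrate is split to acetyl-CoA, acetyl-CoA is carboxylated to malonyl-CoA, and fatty acid synthase joins these units into palmitate with reducing power from NADPH. Elongases and desaturases then lengthen the chain and place double bonds. In liver, thyroid hormone raises several of these genes through its nuclear receptors, and *Thrsp* and *Me1* are among its best known targets there.

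No member gene passed the test for a difference between the genotypes, and 0.990% of all tested genes did. *Elovl5*, a fatty acid elongase, was the single member whose CPM values did not overlap between the genotypes, beside 6.04% of all tested genes. All 4 WT libraries lay above all 4 mutant libraries for *Elovl5*, and its mean was 1.56-fold higher in WT by the fitted model. On the deposited TPM values the genotypes overlapped for *Elovl5*. *Scd2*, a stearoyl-CoA desaturase, was 1.46-fold higher in *Thra1*PV/+ endometrium. *Thrsp* had the largest fitted difference of the members and was lower in the mutant, but that difference rested largely on 1 WT library. *Fasn*, *Acly* and *Cpt1a* had 95% intervals that lay within 2-fold in both directions.

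The promoters of *Elovl5*, *Thrsp* and *Fasn* are shown because the first had the smallest p-value among the members, the second the largest fitted difference, and the third is the central enzyme of the pathway. Each runs 5′ to 3′ on the strand of the gene, from 250 bases before to 50 bases after the RefSeq start site, in build GRCm38.p6. They lie at chr9:77917115-77917414 on the plus strand for *Elovl5*, chr7:97417501-97417800 on the minus strand for *Thrsp* and chr11:120824498-120824797 on the minus strand for *Fasn*. Capitals mark matches, on either strand, to the E-box CACGTG, which carbohydrate- and sterol-responsive factors can bind, and to the CCAAT box, which the factor NF-Y binds.
Elovl5: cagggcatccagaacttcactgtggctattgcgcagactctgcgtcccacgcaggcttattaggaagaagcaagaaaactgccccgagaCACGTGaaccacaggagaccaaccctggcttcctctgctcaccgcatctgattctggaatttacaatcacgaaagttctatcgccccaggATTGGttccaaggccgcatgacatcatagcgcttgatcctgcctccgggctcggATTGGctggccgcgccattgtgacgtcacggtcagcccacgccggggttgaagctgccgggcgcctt
Thrsp: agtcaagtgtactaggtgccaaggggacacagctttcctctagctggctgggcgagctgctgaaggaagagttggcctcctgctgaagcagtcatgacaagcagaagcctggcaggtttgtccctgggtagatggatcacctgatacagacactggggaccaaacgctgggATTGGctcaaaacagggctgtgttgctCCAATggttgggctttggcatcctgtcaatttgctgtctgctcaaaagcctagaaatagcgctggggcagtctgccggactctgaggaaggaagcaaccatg
Fasn: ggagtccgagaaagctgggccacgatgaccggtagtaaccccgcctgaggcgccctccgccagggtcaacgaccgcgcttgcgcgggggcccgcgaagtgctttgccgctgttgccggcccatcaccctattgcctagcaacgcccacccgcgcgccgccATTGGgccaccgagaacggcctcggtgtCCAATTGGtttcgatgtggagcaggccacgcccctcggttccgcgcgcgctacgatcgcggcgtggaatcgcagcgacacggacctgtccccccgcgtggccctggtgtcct
*Elovl5* had 1 E-box, 161 bases before the start, and CCAAT boxes 71 and 17 bases before it. *Thrsp* had CCAAT boxes 79 and 52 bases before the start. *Fasn* had 3 matches to the CCAAT box, at 90, 62 and 59 bases before the start, of which the last 2 overlap on opposite strands. Of the 10 members, 8 had a promoter in the RefSeq table, all but *Scd1* and *Scd2*. CCAAT stood in 6 of the 8, where 37.4% of 32851 mouse promoters of this length hold it, and the E-box in 1, where 7.15% hold it. Members were counted per gene, over any of its promoters, and the background per promoter, so these shares are not on equal terms. *Me1* had more than 1 promoter. Its CCAAT match was in the window at chr9:86687228-86687527, and the window at chr9:86695865-86696164 had 0. The CCAAT match of *Acly* lay 37 bases after the start. The letters AGGTCA, which thyroid hormone receptors bind as a half-site, were found for *Elovl6*, *Acly* and *Cpt1a*, and 16.3% of all promoters hold them. The paired form DR4, which is 2 AGGTCA half-sites read in the same direction with 4 bases between them, was in 0 of the 8 and in 0.0152% of all promoters, and the sterol regulatory element TCACNCCAC was in 0 of the 8 and in 1.24% of all promoters. A match is a description of letters in this window, and so is the lack of one.

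The members lie on 5 chromosomes. In GRCm38 with GENCODE M21, *Fasn* is at chr11:120805846-120824547 on the minus strand, *Acaca* at chr11:84129672-84401651 on the plus strand and *Acly* at chr11:100476353-100528000 on the minus strand. *Me1* is at chr9:86581371-86695953 on the minus strand, *Elovl5* at chr9:77917364-77984519 on the plus strand, *Thrsp* at chr7:97412938-97417730 on the minus strand and *Elovl6* at chr3:129532355-129638495 on the plus strand. *Scd1* at chr19:44394455-44407879 on the minus strand and *Scd2* at chr19:44293674-44306864 on the plus strand are neighbours, and *Cpt1a* is at chr19:3322334-3385733 on the plus strand. All 10 are protein-coding genes, and the counts cover their exons. Reads of some members can be shared with copies elsewhere. Of the stretches of 31 bases in the transcripts of a gene, 33.4% for *Acaca* and 30.0% for *Me1* also occur in transcripts of other genes, mostly *Gm5182* for *Acaca* and *Gm7049* for *Me1*. The share was 8.14% for *Scd1*, 6.81% for *Scd2* and 6.41% for *Elovl6*, and at most 2.15% for the others, so the counts of *Acaca* and *Me1* are the least certain. Of the stretches in *Scd1*, 5.18% occur in *Scd2*.

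Total estimated counts were between 48791602 and 59818887 per library. Endometrial markers were present in all 8 libraries. *Epcam*, a surface protein of epithelium, ranged from 261 to 1056 CPM, and *Pdgfra*, a receptor of stromal fibroblasts, from 34.5 to 229.8 CPM. The cell makeup differed between libraries. Of 13 markers of stratified squamous epithelium, 10 were called higher in *Thra1*PV/+ endometrium, with a summed level of 3075 to 4658 CPM against 12.4 to 69.6 CPM in WT. Of 8 smooth muscle markers, all were lower in the mutant at an unadjusted p under 0.05 in edgeR, beside 9.77% of all tested genes, and none was called. They summed to 145.7 to 686.6 CPM in the mutant and to 573 to 1146 CPM in WT libraries 2 to 4. WT library 1 stood apart with 13140 CPM. With 1 library left out, the median log2 fold change of these markers ran from -5.13 to -1.27. Stromal markers summed to 1679 CPM in *Thra1*PV/+ library 1, 3100 CPM in WT library 1 and 2688 CPM in WT library 2, and to 315 to 1138 CPM in the other 5. In those same 3 libraries the uterine gland markers summed to 1918 to 4654 CPM, against 8609 to 16330 CPM in the other 5. In such bulk samples, fewer cells of a type and less RNA per cell cannot be told apart. The part of cell makeup in the results was not tested.

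Fat cells, which express many of these genes strongly, were near absent by their defining markers. *Adipoq* was at 1.57 CPM in *Thra1*PV/+ library 3 and at most 0.072 CPM in the other 7 libraries, *Plin1* was at most 0.368 CPM in any library, and *Lep* had 0 counts in all 8, where 3 counts was taken as the limit that a count of 0 allows. *Cidec*, a lipid droplet protein, was at 0.817 CPM in *Thra1*PV/+ library 3 and at most 0.072 CPM elsewhere. *Fabp4* was at 4.62 CPM in that library and at 0.142 to 0.648 CPM in the other 7. The 11 adipocyte markers, of which 3 passed the filter, summed to 3.54 to 22.5 CPM in *Thra1*PV/+ and 2.71 to 15.7 CPM in WT endometrium. The 9 sebaceous gland markers summed to 91.2 to 135.5 CPM in the mutant and to 30.8 to 118.5 CPM in WT.

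Levels of different genes were compared per transcript length, on the authors' deposited TPM values. *Scd2* was the most abundant member in both genotypes, at 293 ± 20.4 TPM in *Thra1*PV/+ and 192 ± 56.5 TPM in WT endometrium (mean ± SD, n = 4 each, as for all means here). *Elovl5* followed, at 125 ± 8.12 TPM in the mutant and 179.8 ± 38.9 TPM in WT. In WT the values of these 2 genes overlapped. Within WT libraries 1, 2 and 4 *Scd2* was above *Elovl5*, and in WT library 3 it was below, at 133 against 228 TPM. In the mutant every *Scd2* value lay above every *Elovl5* value. *Fasn* came next with 87.95 ± 16.8 TPM in the mutant and 84.7 ± 18.8 TPM in WT. *Acly* was at 39.8 ± 5.54 TPM and 34.7 ± 5.42 TPM. *Thrsp*, *Me1* and *Cpt1a* stood close together, at 20.6 to 23.2 TPM in the mutant, and were within each other's spread. In WT, *Thrsp* had a mean of 58.5 ± 57.7 TPM but a median of 37.0 TPM, because WT library 2 alone held 143.7 TPM. *Acaca*, *Scd1* and *Elovl6* were the lowest, at 6.48 ± 0.887, 4.96 ± 2.53 and 3.498 ± 1.23 TPM in the mutant and 4.89 ± 1.46, 6.80 ± 3.63 and 4.99 ± 2.64 TPM in WT, and neighbours in that order overlapped. *Scd2* thus exceeded *Scd1* in every library of both genotypes.

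**Figure D1:**
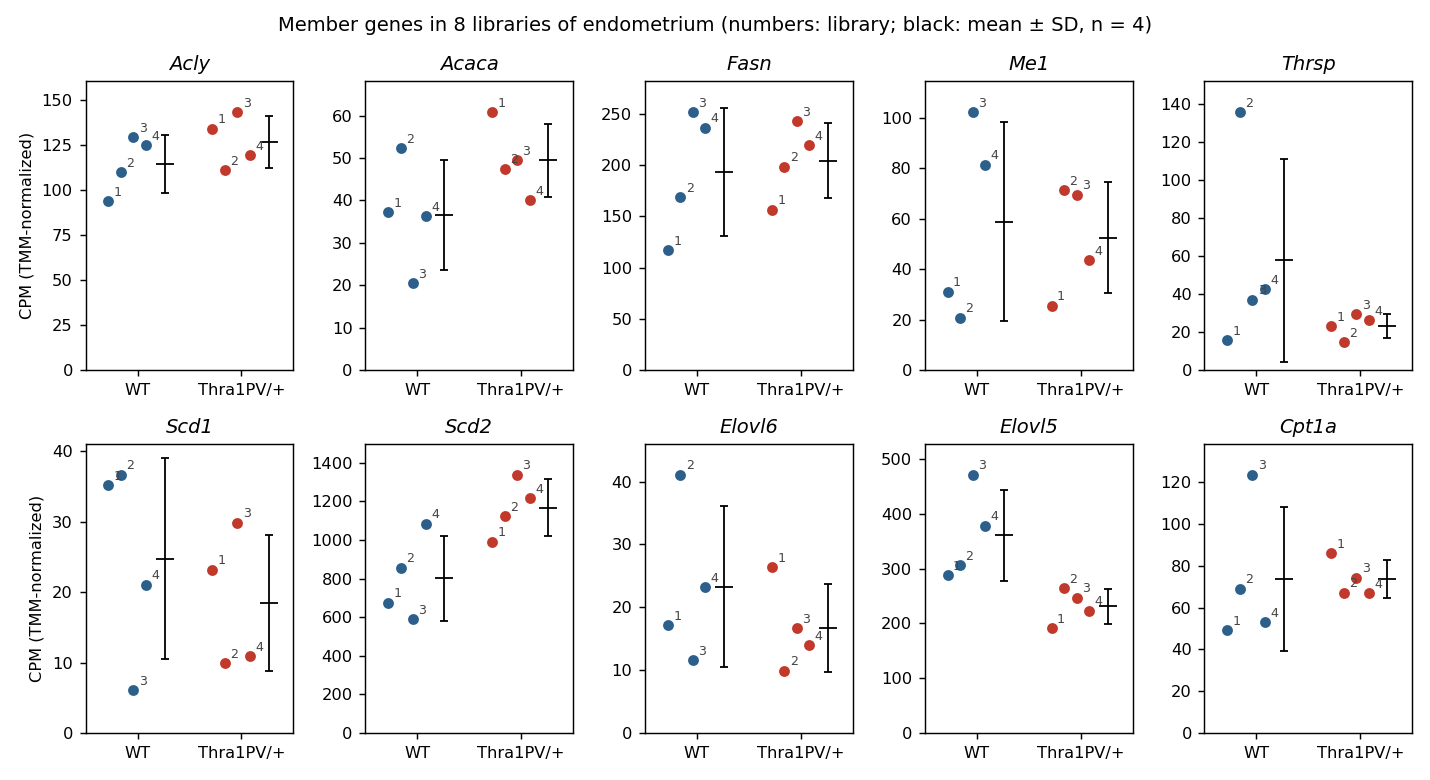
TMM-normalized CPM (vertical axis, from 0, one scale per gene) of the 10 member genes in WT (blue) and *Thra1*PV/+ (red) endometrium. Each point is 1 library with its number, and the black mark is the mean with the SD of the 4 libraries; *Elovl5* is the one panel in which the genotypes do not overlap, and WT library 2 stands at 136 CPM for *Thrsp* above all other libraries.

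From here on, levels of 1 gene are given as CPM (counts scaled to the library total after TMM normalization), in the order of libraries 1 to 4, and differences as log2 fold changes of *Thra1*PV/+ over WT with their standard error. Genes were called in edgeR's quasi-likelihood test where the adjusted p-value was at most 0.1 and the fitted difference at least 2-fold. By this rule 0 of the 10 members were called, and 180 of 18174 tested genes (0.990%), 168 of them higher and 12 lower in the mutant. At an unadjusted p under 0.05, edgeR gave 2 members, *Elovl5* and *Scd2*, beside 9.77% of all tested genes. DESeq2 called 0 members, beside 3.58% of the 22073 genes with an adjusted p, and gave 3 at an unadjusted p under 0.05, beside 11.7% of those genes. By limma voom 0 members were called, beside 1.71% of all tested genes, and 2 had an unadjusted p under 0.05, beside 12.5%. The genotypes did not overlap for 1 member, *Elovl5*, and for 6.04% of all tested genes. With 10 members, 1 gene makes up 10% of the list, so no difference from these background shares is read from the counts. Fitted differences were positive for 4 members and negative for 6, with a median log2 fold change of -0.08 against -0.05 over all tested genes. The median size of the difference regardless of sign was 0.43 for the members and 0.24 for all tested genes. This contrast was not tested. Several members varied widely between libraries of the same genotype, so no larger effect of genotype is read from it.

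*Acly*, ATP citrate lyase, supplies the acetyl-CoA for synthesis. It was at 134, 111, 143 and 119 CPM in *Thra1*PV/+ and at 93.9, 110.0, 130 and 125 CPM in WT endometrium. The genotypes overlapped, and *Acly* varied least among the members, with a 1.53-fold span from the lowest library to the highest. Its log2 fold change was 0.15 ± 0.15, with an adjusted p of 0.808 in edgeR and a 95% interval from -0.19 to 0.48.

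*Acaca*, acetyl-CoA carboxylase 1, makes malonyl-CoA, the committed step. Its levels were 60.8, 47.4, 49.5 and 40.1 CPM in the mutant and 37.2, 52.3, 20.5 and 36.2 CPM in WT. WT library 3 was the lowest of the 8 and WT library 2 lay within the mutant range. A log2 fold change of 0.44 ± 0.27 had an adjusted p of 0.658 in edgeR, and it ran from 0.26 without WT library 3 to 0.69 without WT library 2. Its counterpart *Acacb*, whose malonyl-CoA regulates oxidation, had a log2 fold change of -0.41 ± 0.34 with an adjusted p of 0.764 in edgeR.

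*Fasn*, fatty acid synthase, assembles palmitate. It was at 157, 198, 243 and 219.5 CPM in *Thra1*PV/+ and at 117, 169, 252 and 236 CPM in WT endometrium, so the highest and the lowest library were both WT. Means were 204 ± 36.6 and 193 ± 62.3 CPM. The fitted log2 fold change was 0.08 ± 0.26 with an adjusted p of 0.957 in edgeR, and its 95% interval from -0.51 to 0.67 left out a 2-fold difference in either direction. The sign turned to -0.02 without *Thra1*PV/+ library 3 and to -0.06 without WT library 1.

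*Me1*, cytosolic malic enzyme, yields NADPH for synthesis. Its values were 25.6, 71.3, 69.4 and 43.6 CPM in the mutant and 31.03, 20.8, 102 and 81.4 CPM in WT. High and low libraries occurred in both genotypes, and the span from lowest to highest was 4.91-fold. On the log2 scale the fold change was -0.17 ± 0.54 with an adjusted p of 0.957 in edgeR, with a 95% interval from -1.39 to 1.06 that does not leave out a 2-fold difference. It was 0.26 without WT library 3.

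*Thrsp*, thyroid hormone responsive protein or Spot 14, is a nuclear and cytosolic protein tied to lipogenesis. It was at 23.0, 14.6, 29.5 and 26.2 CPM in *Thra1*PV/+ endometrium. In WT it was at 15.6, 136, 36.9 and 42.6 CPM. WT library 2 stood 3.19-fold above the next highest library, and WT library 1 lay within the mutant range. The log2 fold change was -1.31 ± 0.59, with an unadjusted p of 0.0575 and an adjusted p of 0.532 in edgeR. Without WT library 2 it was -0.41, so that 1 library set most of the difference, while without WT library 1 it was -1.57 and the genotypes no longer overlapped. DESeq2 gave an unadjusted p of 0.0340 and an adjusted p of 0.356 for *Thrsp*. The related gene *Mid1ip1*, whose product binds acetyl-CoA carboxylase and *Thrsp* protein, was at 41.9 to 66.5 CPM in the mutant and 70.9 to 162 CPM in WT without overlap. Its log2 fold change was -0.89 ± 0.29 with an adjusted p of 0.352 in edgeR, and its highest library was also WT library 2.

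The 2 desaturases, which place a double bond in stearate and palmitate, had opposite signs. *Scd1* was at 23.2, 9.90, 29.9 and 10.9 CPM in *Thra1*PV/+ and at 35.2, 36.7, 6.11 and 21.0 CPM in WT endometrium. Its libraries spanned 6.01-fold with wide overlap of the genotypes, and the log2 fold change was -0.42 ± 0.57 with an adjusted p of 0.871 in edgeR. *Scd2* was at 990, 1124, 1338 and 1217 CPM in the mutant and at 675, 855, 590 and 1085 CPM in WT. WT library 4 was the only WT library above any mutant library, and *Thra1*PV/+ library 1 the only one below it. Means were 1167 ± 147 and 801 ± 219 CPM. The log2 fold change of *Scd2* was 0.54 ± 0.22, with a 95% interval from 0.04 to 1.05, an unadjusted p of 0.0370 and an adjusted p of 0.472 in edgeR. It stayed positive when each library was left out, from 0.44 to 0.72, and the adjusted p then ran from 0.277 to 0.847. On the deposited TPM values *Scd2* did not overlap, with 265.8 to 310 TPM in the mutant and 133 to 250 TPM in WT. The log2 ratio of *Scd1* to *Scd2* counts was -6.13 ± 0.788 in *Thra1*PV/+ and -5.27 ± 1.07 in WT. The difference of -0.861 had p = 0.257 in a two-sided exact permutation test and an adjusted p of 0.771 over the 3 ratios tested, so the opposite signs of the desaturases were not shown to differ. The smallest p this test can give with 4 against 4 is 0.0286.

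The elongases act on different chains. *Elovl6*, which extends palmitate to stearate, was at 26.4, 9.92, 16.7 and 14.0 CPM in *Thra1*PV/+ and at 17.2, 41.1, 11.6 and 23.1 CPM in WT endometrium. WT library 2 was the highest, as for *Thrsp*, and the genotypes overlapped otherwise. For *Elovl6* the log2 fold change was -0.47 ± 0.43 with an adjusted p of 0.788 in edgeR, and it was -0.02 without WT library 2.

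*Elovl5*, which extends polyunsaturated chains, was at 191, 264, 247 and 223 CPM in the mutant and at 288, 306, 471 and 378 CPM in WT. Every WT library was above every mutant library, with means of 231 ± 31.8 and 361 ± 83.2 CPM. The log2 fold change was -0.64 ± 0.19, with a 95% interval from -1.08 to -0.20, an unadjusted p of 0.00992 and an adjusted p of 0.313 in edgeR, so it did not pass. Without each library in turn it ran from -0.71 to -0.47, the latter without WT library 3, and the adjusted p from 0.292 to 0.647. The lowest adjusted p of all alternatives was 0.150, by limma voom, and DESeq2 gave 0.158. On the deposited TPM values the genotypes overlapped for *Elovl5*, since *Thra1*PV/+ library 2 was at 135.5 TPM and WT library 1 at 134 TPM. The 2 WT libraries with the most stromal markers, 1 and 2, were the lower ones for *Elovl5*, at 288 and 306 CPM against 471 and 378 CPM. *Thra1*PV/+ library 1, with the most stromal markers of the mutant at 1679 CPM, was also the lowest mutant library for *Elovl5*. Across genotypes the order differed, since *Thra1*PV/+ libraries 2 to 4 were below every WT library both for stromal markers, at 315 to 605.5 CPM, and for *Elovl5*. The part of cell makeup in the level of *Elovl5* was not tested. The log2 ratio of *Elovl6* to *Elovl5* counts differed by 0.217 between the genotypes, with p = 0.657 in the two-sided exact permutation test and an adjusted p of 0.943.

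*Cpt1a*, carnitine palmitoyltransferase 1A, admits long-chain fatty acids to mitochondria and is inhibited by malonyl-CoA. It was at 86.0, 67.2, 74.3 and 67.0 CPM in *Thra1*PV/+ and at 49.1, 69.0, 124 and 53.0 CPM in WT endometrium. The mutant libraries lay inside the WT range, and the means were 73.6 ± 8.93 and 73.7 ± 34.4 CPM. Its log2 fold change had an adjusted p of 0.999 in edgeR with a 95% interval from -0.67 to 0.66, so a 2-fold difference lay outside it. The value was 0.38 without WT library 3, the highest. For the paralogs, the log2 fold change was 0.67 ± 0.72 for *Cpt1b* and -0.41 ± 0.33 for *Cpt1c*, with adjusted p-values of 0.833 and 0.755 in edgeR. The log2 ratio of *Acaca* to *Cpt1a* counts was -2.59 in WT library 3 and -0.74 to -0.401 in the other 7 libraries. The genotypes differed by 0.404 in this ratio, with p = 0.943 in the two-sided exact permutation test and an adjusted p of 0.943.

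**Figure D2:**
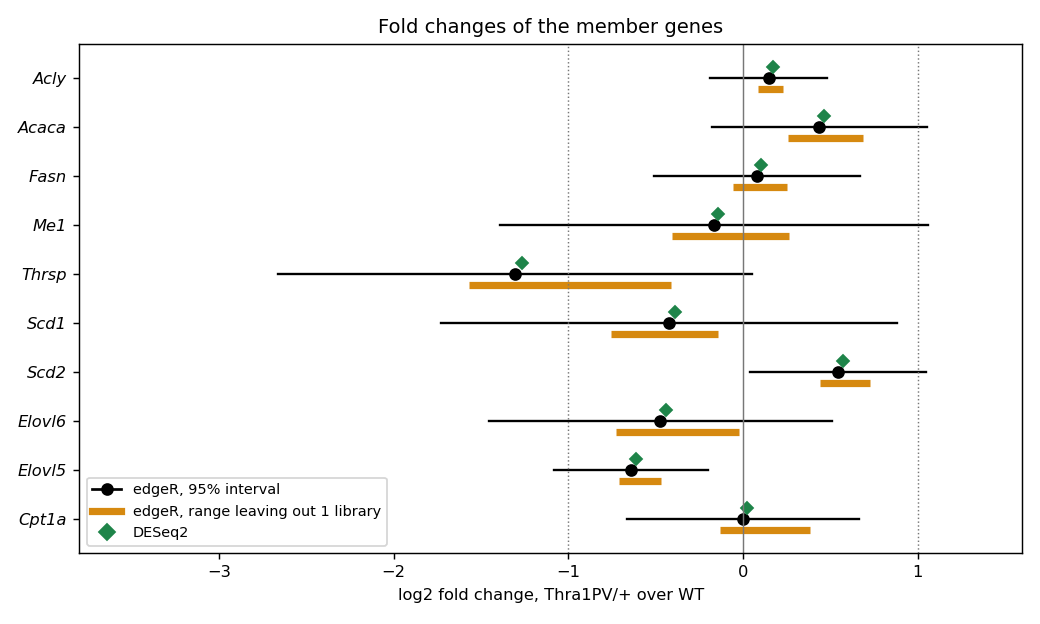
Log2 fold change of *Thra1*PV/+ over WT (horizontal axis, dotted lines at 2-fold) for each member gene. Black points with lines are edgeR values with 95% intervals, orange bars the range when each library is left out, and green diamonds DESeq2; the interval lies below 0 for *Elovl5* and above 0 for *Scd2* and spans 0 for the other 8, and the bar of *Thrsp* runs from -1.57 to -0.41.

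Libraries of the same genotype differed widely. From the lowest to the highest library, *Thrsp* spanned 9.27-fold, *Scd1* 6.01-fold, *Me1* 4.91-fold and *Elovl6* 4.14-fold, and the other 6 members between 1.53-fold and 2.97-fold. The SD of log2 CPM was larger in WT than in *Thra1*PV/+ endometrium for all 10 members, for example 1.28 against 0.442 for *Thrsp* and 0.603 against 0.169 for *Cpt1a*, a description with no test. WT library 3 was the lowest of the 8 for *Acaca*, *Scd1* and *Scd2* and the highest for *Fasn*, *Me1*, *Elovl5* and *Cpt1a*. It also had the lowest TMM factor, 0.841, and the lowest sebaceous gland markers. For *Me1* and *Fasn* the 3 lowest libraries were *Thra1*PV/+ library 1 and WT libraries 1 and 2, which were the 3 with the most stromal and the least uterine gland markers. The part of cell makeup in the levels of *Me1* and *Fasn* was not tested.

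**Figure D3:**
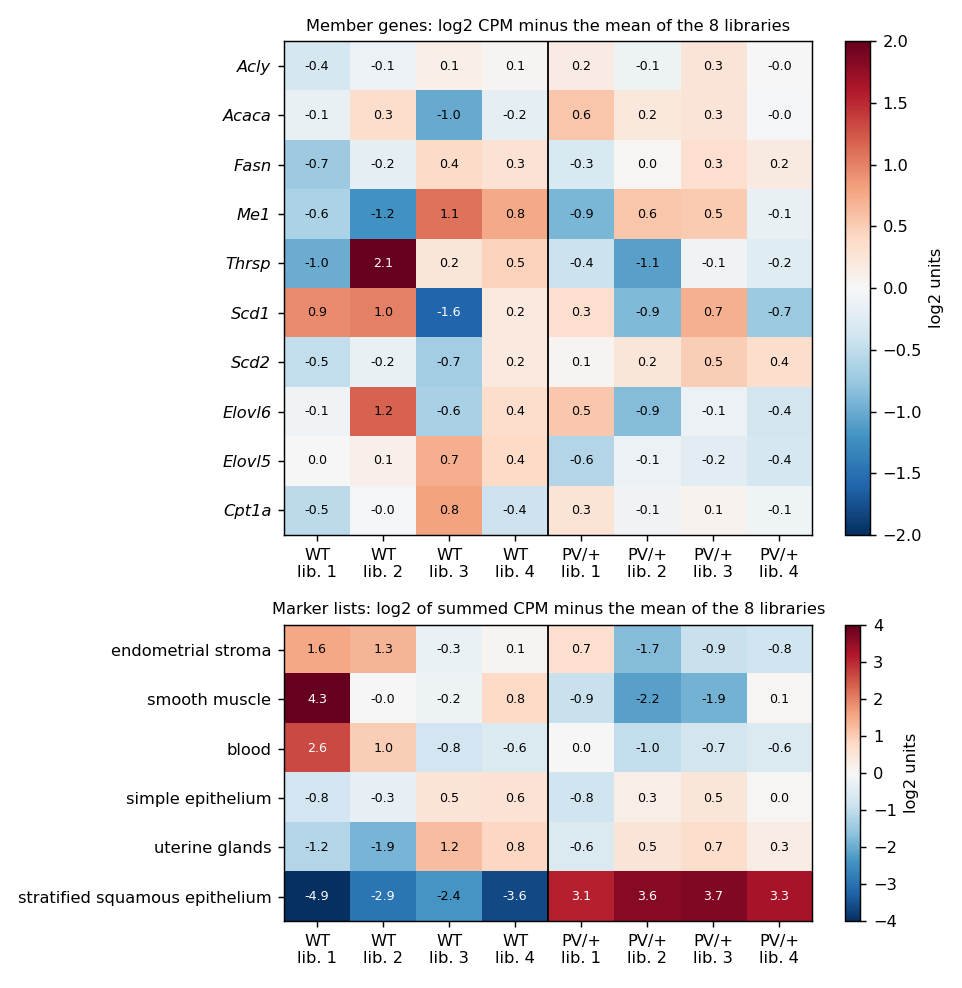
Each cell is a log2 value of 1 library minus the mean of the 8 libraries, for the member genes (top, log2 CPM) and for marker lists (bottom, log2 of summed CPM, wider colour scale), with WT left and *Thra1*PV/+ (PV/+) right of the line. *Me1* and *Fasn* are below their means in WT libraries 1 and 2 and *Thra1*PV/+ library 1, the 3 libraries with the highest endometrial stroma markers, and squamous markers separate the genotypes.

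The tested genes of mean log2 CPM 2 or more whose pattern over the 8 libraries was nearest to a member were found by the root mean square difference of log2 CPM centred on each gene's own mean. For *Thrsp* these were *Cutal* at 0.354, *Calb1* at 0.430 and *Sox17* at 0.454 log2 units. For *Me1* they were *Parp14* at 0.137, *Apobr* at 0.150 and *Chst7* at 0.155, and for *Fasn* they were *Pafah1b3* at 0.0902, *Tmem238* at 0.107 and *Tmem192* at 0.108. A flat profile would be at 0.948 from *Thrsp*, 0.795 from *Me1* and 0.358 from *Fasn*. These genes were picked for the smallest differences, so lying closer to their member than a flat line follows from the choice. *Thrsp* was the least closely matched, and no likeness was tested.

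The other genes of lipid metabolism were read from 8 lists of 115 genes in all, of which 113 passed the filter. Of these, 1 was called higher in the mutant and 0 lower, and 20 had an unadjusted p under 0.05 in edgeR, 8 higher and 12 lower, beside the 9.77% over all tested genes. Their median log2 fold change was -0.16 against -0.05 for all tested genes. The called gene was *Acsl1*, which activates long-chain fatty acids to acyl-CoA. It was at 37.9, 54.0, 38.0 and 30.3 CPM in *Thra1*PV/+ and at 14.1, 13.3, 5.83 and 8.64 CPM in WT endometrium. The genotypes were well apart, with a log2 fold change of 1.93 ± 0.31 and an adjusted p of 0.0383 in edgeR. The call was lost when *Thra1*PV/+ library 2, *Thra1*PV/+ library 3 or WT library 4 was left out, with adjusted p-values of 0.106, 0.124 and 0.133, and the log2 fold change stayed between 1.75 and 2.16.

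Among the 11 acyl-CoA synthetases and transport proteins, 5 had an unadjusted p under 0.05 in edgeR, beside 9.77% of all tested genes. This list was chosen with earlier results known, so no enrichment is read from the count. The median log2 fold change of the 11 was 0.08. *Acsl3* had a log2 fold change of 0.88 ± 0.15 with an adjusted p of 0.0524 in edgeR, which is under 2-fold and so not called. Values for *Acsbg1* and *Slc27a4* were 2.21 and 0.44, also without overlap of the genotypes, and *Acsl4* had -0.80, with adjusted p-values of 0.222, 0.420 and 0.490 in edgeR. DESeq2 called *Acsbg1*, with an adjusted p of 0.00558, at low levels of 0.881 to 3.78 CPM in the mutant and 0.217 to 0.670 CPM in WT. Without WT library 1, edgeR called *Acsl4* lower, with a log2 fold change of -1.01 and an adjusted p of 0.0589. Squamous epithelial markers separated the genotypes in the same direction as *Acsl1*, at 3075 to 4658 CPM against 12.4 to 69.6 CPM, and their part in the level of *Acsl1* was not tested.

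The 12 partners of fatty acid synthesis had a median log2 fold change of -0.24, and 0 were called. Besides *Mid1ip1*, those under an unadjusted p of 0.05 were *Acss2*, which makes acetyl-CoA from acetate, at -1.16 ± 0.41, and *Oxsm*, the mitochondrial ketoacyl synthase, at -0.44 ± 0.17, with adjusted p-values of 0.393 and 0.445 in edgeR. All 3 were lower in the mutant without overlap. Of all tested genes, 9.77% had such a p and 6.04% did not overlap. This list too was chosen with earlier results known, so no enrichment is read from these counts. *Acss2* was at 10.2 to 11.3 CPM in the mutant and 13.7 to 49.1 CPM in WT, and its log2 fold change was -0.53 without WT library 3, the highest.

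The 17 partners of desaturation and elongation had a median of -0.36 with 0 called, and *Hacd1*, a dehydratase of the elongation cycle, had -1.92 ± 0.81 with an adjusted p of 0.493, and -0.46 without WT library 1. *Elovl2*, at most 4.12 CPM in any library, had -2.17 ± 1.03 with an adjusted p of 0.562, and -0.31 without WT library 1. Among the 12 regulators of lipogenesis the median was -0.08. *Srebf1*, which encodes the sterol regulatory element binding factor that drives lipogenic genes, was at 55.4 to 73.1 CPM in the mutant and 52.2 to 67.5 CPM in WT, with a log2 fold change of 0.15 ± 0.14 and an adjusted p of 0.786 in edgeR. *Mlxipl*, the carbohydrate-responsive factor ChREBP, stood at at most 1.70 CPM in any library, with -0.15. *Nr1h3*, the oxysterol receptor LXRα, had -0.23 and *Insig1*, which retains the SREBP complex in the endoplasmic reticulum, -0.39, with adjusted p-values of 0.929, 0.901 and 0.675 for these 3. *Rxra*, the partner of the thyroid hormone receptors on DNA, had 0.45 ± 0.15 without overlap of the genotypes and an adjusted p of 0.373, and *Scap* had 0.25 with 0.604.

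For triglyceride synthesis and lipid droplets, 21 genes had a median of 0.00 and 0 calls. *Lpin2*, a phosphatidate phosphatase, was at 30.9 to 105.8 CPM in the mutant and 12.6 to 23.1 CPM in WT, with a log2 fold change of 1.66 ± 0.39 and an adjusted p of 0.166 in edgeR, and DESeq2 called it with an adjusted p of 0.00501. *Plin4* had -3.19 ± 1.24 with an adjusted p of 0.451 and was -0.48 without WT library 1. The 7 genes of lipid breakdown and export had a median of -0.21 with 0 calls, and the values were 1.32 ± 0.55 for *G0s2*, an inhibitor of the main triglyceride lipase, and -0.91 ± 0.51 for *Lpl*, lipoprotein lipase, with adjusted p-values of 0.489 and 0.629 in edgeR. *G0s2* was at 0.71 without *Thra1*PV/+ library 2 and *Lpl* at -0.26 without WT library 1. The 24 genes of fatty acid oxidation had a median of -0.23 with 0 calls. Only *Acadvl* at -0.34 and *Hsd17b4* at -0.39 had an unadjusted p under 0.05 in edgeR, beside 9.77% of all tested genes.

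Of 11 other known thyroid hormone targets, 9 passed the filter and 0 were called, with a median of -0.17. *Klf9* was at 16.1, 3.59, 5.62 and 4.22 CPM in *Thra1*PV/+ and at 54.1, 38.5, 10.7 and 17.1 CPM in WT endometrium. *Thra1*PV/+ library 1 and WT library 3 overlapped. The log2 fold change was -2.02 ± 0.65 with an adjusted p of 0.351 in edgeR. *Dio1*, the type 1 deiodinase that is raised by thyroid hormone in liver, was at 0.879 to 4.15 CPM in the mutant and 5.50 to 14.9 CPM in WT without overlap, with -1.63 ± 0.56 and an adjusted p of 0.373. DESeq2 called both, with adjusted p-values of 0.0524 for *Klf9* and 0.0880 for *Dio1*. *Hr*, a corepressor of the thyroid hormone receptor, had 0.69 ± 0.34 with an adjusted p of 0.582, and *Thrb* -0.99 ± 0.36 with 0.413. Stromal markers had a median log2 fold change of -1.31 and moved with *Klf9*, whose highest libraries, WT libraries 1 and 2, were also the highest for these markers, and their part in its level was not tested. By spatial profiling the study reported lower *Klf9* in mutant epithelium and in mutant stroma, each measured apart. It also reported less *Klf9* RNA and protein in whole mutant uterus.

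**Figure D4:**
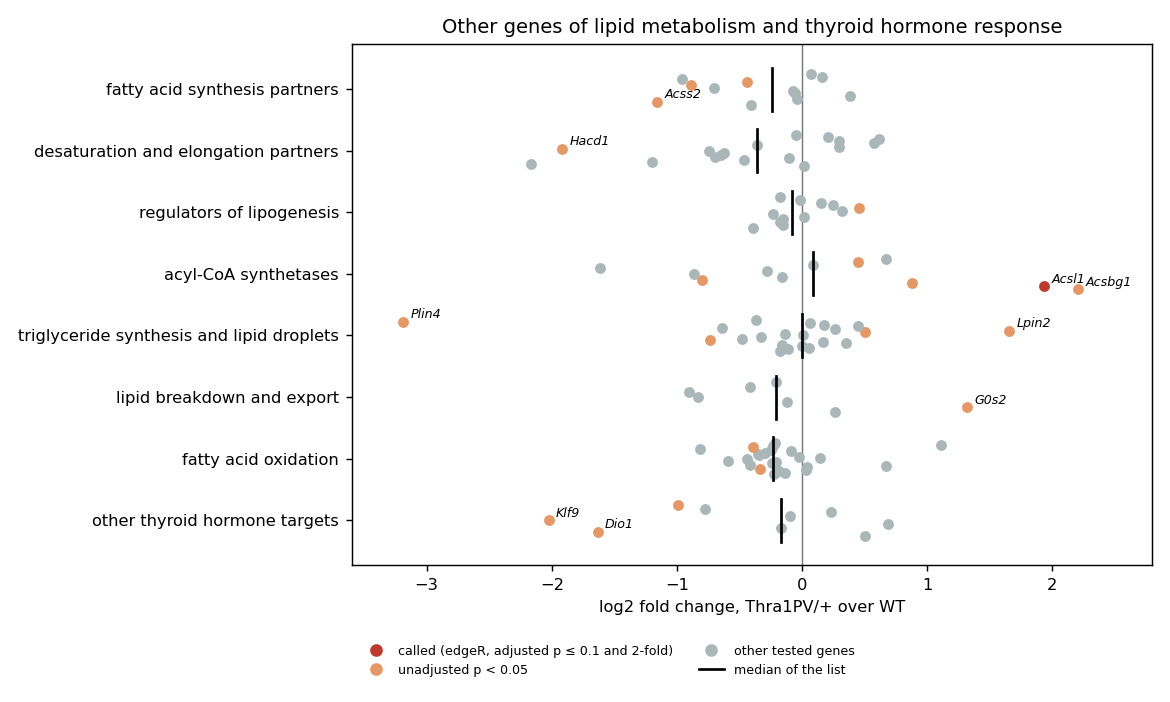
Log2 fold change of *Thra1*PV/+ over WT (horizontal axis) for the 113 tested genes of the 8 lists (vertical axis), with each list's median as a black line. *Acsl1* at 1.93 is the one called gene (red), orange points have an unadjusted p under 0.05 in edgeR, and the list medians lie between -0.36 and 0.08.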

How the data were processed

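RNA-seq of laser-captured endometrium from 4 *Thra1*PV/+ and 4 WT mice was re-analysed. Libraries followed an Illumina stranded mRNA protocol with paired ends. Per the submitters' processing notes and the study's methods, reads were trimmed with Trimmomatic, quantified with Salmon and tested with DESeq2 on mm10. Versions and the annotation release are not given in the sources used here. The deposited tables hold estimated counts per gene, not normalized, and TPM per gene. Sorted by size, TPM of the 8 libraries never differed by more than 0.291 at a rank, as after quantile normalization, a step that the methods leave out. In the TPM table, 1 further column headed as WT holds negative values and division errors and was not used.

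The estimated counts were rounded and analysed in R 4.3.3 with edgeR 4.0.16 (limma 3.58.1). filterByExpr (minimum count 10, minimum total 15) left 18174 genes. Libraries were TMM normalized and tested with the quasi-likelihood test, genotype being the only term, with Benjamini-Hochberg adjustment over all tested genes. Log2 CPM used a prior count of 2, and ratios of 2 genes a pseudocount of 0.5. DESeq2 1.42.0 was an alternative. The scripts were tested on simulated data. Libraries with the same replicate number did not deviate together (r = 0.269, -0.436, 0.340 and -0.159), so the numbers were not taken as pairs. No source says that the 4 libraries of a genotype came from separate litters, and p-values measure the spread between these libraries. Library totals were 48791602 to 59818887 counts, and each member had at least 307 counts in every library. Identifiers without a symbol held at most 0.00896% of the counts.

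The members and all gene lists were chosen with earlier results of these data known. Genes named in the text are the members, up to 4 called genes of each pathway list or the 2 with the smallest p where none was called, a fixed set of regulators and targets, and fat cell markers. *Acsl3*, *Acsbg1*, *Slc27a4*, *Acsl4*, *Oxsm*, *Thrb* and *Lep* were named after their values were seen. Marker lists not described in the report had these median log2 fold changes, with 0 genes called in each: simple epithelium -0.06, uterine glands 0.07, macrophage 0.24, neutrophil 1.96 and blood -1.78. The absence of calls does not show equal levels. Neutrophil markers summed to 80.2 to 739 CPM in the mutant and 10.5 to 146 CPM in WT. Blood markers summed to 14.6 to 29.3 CPM and 17.1 to 178.7 CPM. The alternatives were other tests, normalizations, filters and thresholds, the replicate block, the TPM values with a pseudocount of 1 or 0.1, and each library left out.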

Additional observations from a re-analysis of the deposited data

Results flagged for a closer look

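Of the 62 groups of 4 libraries examined, 3 held a library that stood apart. The measure was the Dixon ratio of the gap to the whole range at the 95% level. In all 3 it was WT library 3 against the other 3 WT libraries. Chance flags about 1 in 20 groups, or 3.1 of 62, for any library, and groups from the same libraries are not independent. That rate does not say how often 1 library would hold all flags. For the log2 ratio of *Acaca* to *Cpt1a* the Dixon ratio was 0.932, with a log2 ratio of -2.59 in WT library 3 and -0.55 to -0.401 in the other 3 WT libraries. For the summed level of the desaturation and elongation partners it was 0.835, with a log2 level of 8.74 against 9.06 to 9.13. For the summed level of the sebaceous gland markers it was 0.860, with 4.94 against 6.62 to 6.89.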

How the results depend on the processing

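Of 180 member fold changes recomputed under 18 alternatives, 158 kept their direction, 22 changed sign and none passed the threshold. The sign changes were in members with small differences, *Cpt1a* (14), *Me1* (6) and *Fasn* (2). *Cpt1a* was 0.02 with DESeq2, with its size factors and with at least 1 count, 0.18 with voom, 0.05 by upper quartile, 0.12 by library size, 0.01 with at least 10 counts in every library, 0.11 and 0.12 on the TPM values, and -0.13 to 0.38 with 1 library left out. *Me1* was 0.11 with voom, 0.04 and 0.05 on the TPM values, and -0.41 to 0.26 with 1 library left out. With 1 library left out, *Fasn* ran from -0.06 to 0.25, *Mlxipl* from -0.31 to 0.03, *Nr1h3* from -0.44 to 0.10 and *Fabp4* from -0.33 to 2.18. The log2 ratio of *Elovl6* to *Elovl5* ran from -0.203 to 0.613, that of *Acaca* to *Cpt1a* from -0.131 (without WT library 3) to 0.599 and that of *Scd1* to *Scd2* from -1.30 to -0.525. The cause of these changes was not tested.

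Over all genes, 180 calls became 791 with DESeq2, 311 with voom, 81 with at least 10 counts in every library, 119 at an adjusted p of 0.05, 1775 at an unadjusted p under 0.05, and 81 to 167 with 1 library left out (81 without *Thra1*PV/+ library 3, 114 without WT library 4, 116 without *Thra1*PV/+ library 2). Member calls were 0 in each case and 2 at an unadjusted p under 0.05. Members without overlap were 2 by library size (*Elovl5* and *Scd2*) and 1 to 2 with 1 library left out, the second being *Scd2* without *Thra1*PV/+ library 1 or WT library 4, *Thrsp* without WT library 1 and *Acaca* without WT library 2. On the TPM values the 1 such member was *Scd2*. The share over all tested genes, 6.04%, was taken for the main setting only, so these other counts have no background share. With 1 library left out, the second member follows from removing a library that overlapped. Among other named genes, 3 values lost the threshold (all *Acsl1*) and 5 gained it (*Klf9*, *Dio1*, *Lpin2* and *Acsbg1* with DESeq2, *Acsl4* without WT library 1). The median over all tested genes moved from -0.05 (TMM) to 0.03 by library size.

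With the replicate block, 82 genes were called, of which 75 were among the 180, and *Cpt1a* was 0.09. The block changed no member call. The ratios had no paired analysis, since 4 pairs cannot pass 0.05. The spread between libraries sets the precision: 7 members have 95% intervals that reach past 2-fold, so a missed threshold does not show equal levels.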
